A study of Mus musculus with 18 samples.

Results

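Atp1b1, Atp1b2 and Atp1b3 encode the beta subunits of the sodium-potassium ATPase, and Fxyd1 encodes phospholemman, a small membrane protein that binds the pump. They were taken from the expression table by gene name, 4 of the 21899 genes listed, and all 4 were found. RNA sequencing had been run on liver, white adipose tissue (eWAT, epididymal per the study) and muscle (quadriceps, QU) of wild-type C57BL/6 male mice aged 18 weeks. The control mice (CON) ate a normal diet, and the high-salt mice (HSD) were fed a high-salt diet for 12 weeks with saline to drink. Each tissue and diet had 3 libraries, 18 in all, and several mice gave more than 1 tissue. The question behind the design was which genes change in metabolic tissues after long salt intake. For these 4 genes it comes down to which isoform each tissue used and whether the diet moved it.

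The sodium-potassium ATPase moves sodium out of the cell and potassium in at the cost of ATP, and so sets the gradients that drive sodium-coupled transport, membrane potential and cell volume. Its catalytic alpha subunit needs a beta subunit, a glycoprotein with a single membrane pass, to fold, leave the endoplasmic reticulum and reach the surface, and the beta isoform also tunes the affinity for potassium. Proteins of the FXYD family are accessory subunits that adjust the pump in a tissue-dependent way. Phospholemman, the family member best known from heart and skeletal muscle, lowers the pump's affinity for sodium until protein kinase A or C phosphorylates it, which lifts the inhibition.

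On the mm10 build with the GENCODE M21 annotation, all 4 are protein-coding genes on the minus strand. Atp1b1 lies at chr1:164437109-164458355, Atp1b2 at chr11:69599736-69605942, Atp1b3 at chr9:96332655-96364442 and Fxyd1 at chr7:31051678-31057199. Atp1b1 overlaps Nme7 on the other strand. The library kit keeps strand, but the strand setting of the counting is not given in the sources used here. Promoter windows of 3 of the 4 genes matched RefSeq (GRCm38.p6). The 250 bases before the start site are shown for Atp1b1 and Atp1b3, the pair of beta subunits whose CON and HSD libraries did not overlap in muscle. Capitals mark GC boxes (GGGCGG, or CCGCCC on the other strand), CCAAT boxes (CCAAT or ATTGG) and E-boxes (CANNTG), and an E-box and a GC box run into each other in the Atp1b3 window.
Atp1b1, chr1:164458356-164458605, minus strand, 5′ to 3′: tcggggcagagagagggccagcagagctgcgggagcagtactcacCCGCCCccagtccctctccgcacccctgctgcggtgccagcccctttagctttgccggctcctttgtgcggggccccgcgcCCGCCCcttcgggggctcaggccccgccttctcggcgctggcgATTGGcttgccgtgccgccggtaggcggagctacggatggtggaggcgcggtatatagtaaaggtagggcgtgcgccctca
Atp1b3, chr9:96364432-96364681, minus strand, 5′ to 3′: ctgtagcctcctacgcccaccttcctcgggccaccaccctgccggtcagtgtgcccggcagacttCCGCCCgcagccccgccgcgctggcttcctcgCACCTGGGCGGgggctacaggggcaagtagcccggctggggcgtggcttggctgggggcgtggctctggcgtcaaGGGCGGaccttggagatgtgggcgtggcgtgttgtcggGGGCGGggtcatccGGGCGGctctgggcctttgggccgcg
The Atp1b1 window held 2 GC boxes and 1 CCAAT box, and the Atp1b3 window shown held 5 GC boxes and 1 E-box. A second RefSeq start of Atp1b3, with the window chr9:96363716-96363965 (not shown), held 0 GC boxes and 1 E-box at 76.8% GC. Over 32851 mouse windows of the same length, a GC box was found in 32.74%, a CCAAT box in 33.85% and an E-box in 66.22%. The GC content was 70.4% for Atp1b1 and 73.6% for the Atp1b3 window shown, against a median of 52.4% over all windows. The TATA box (TATAAA) was found in none of these windows and in 12.37% of all windows. These matches describe letters only.

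Expression was given as FPKM (the fragments of a gene divided by its exon length and by the fragments of the library), a level per length. That length takes in all annotated exons of a gene, not only those of the transcripts present. It was 3081 bases for Atp1b1, 4085 for Atp1b2, 2389 for Atp1b3 and 2186 for Fxyd1. Shares and orders between genes depend on these lengths, and other lengths were not tested. The library totals behind it ran from 7628071 to 16637489 fragments. Libraries held hepatocyte, adipocyte or muscle fibre markers as labelled, and 3 of them stood apart by muscle fibre, epididymal or male germ cell markers. Liver CON replicate 2 had a summed level of 5076 FPKM over 12 skeletal muscle fibre markers, while the other 5 liver libraries had 2.56 to 7.05 FPKM. That is 7.45% of the mean of the muscle CON libraries. In eWAT HSD replicate 2, the 12 epididymal epithelium markers summed to 18430 FPKM against 1.27 to 13.7 FPKM in the other eWAT libraries, and the 12 adipocyte markers to 9797 FPKM against 26200 to 31480 FPKM. The 10 male germ cell markers summed to 611.5 FPKM in eWAT HSD replicate 1, 267.8 FPKM in replicate 2 and 36.9 FPKM in replicate 3, against 0.512 to 51.1 FPKM in eWAT CON. Blood cell markers summed to 5667 FPKM in eWAT CON replicate 1, against 243.3 to 744.0 FPKM in the other eWAT libraries. In liver CON replicate 2 they summed to 5626 FPKM, against 236.6 to 842.3 FPKM in the other liver libraries. Mitochondrially encoded genes took 15.38 to 60.82% of fragments in liver, 3.52 to 5.11% in eWAT and 11.32 to 16.5% in muscle. These libraries are bulk tissue, so fewer cells of a type and less RNA per cell cannot be told apart.

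The leading beta subunit differed between tissues. Atp1b1 took the largest share of beta subunit RNA in 5 of 6 liver libraries, Atp1b3 in 6 of 6 eWAT libraries and Atp1b2 in 6 of 6 muscle libraries. A share here is the FPKM of 1 isoform over the sum of the 3, in percent. In liver, the shares were 58.3 ± 11.01% Atp1b1, 39.7 ± 12.2% Atp1b3 and 2.01 ± 1.74% Atp1b2 (SD, n = 6). In eWAT, Atp1b3 made up 74.6 ± 10.02%, Atp1b1 17.1 ± 12.7% and Atp1b2 8.30 ± 2.86% (SD, n = 6). In muscle, Atp1b2 reached 49.5 ± 4.32%, Atp1b1 32.7 ± 7.39% and Atp1b3 17.9 ± 5.90% (SD, n = 6). The summed level of the 3 isoforms was 22.7 ± 8.34 FPKM in liver, 84.1 ± 8.53 FPKM in eWAT and 104.9 ± 15.7 FPKM in muscle. These sums are not adjusted for the median gene, which also shifted between tissues. Its log2 fold change in CON mice was 1.36 for eWAT against liver and 0.52 for muscle against liver. The part of that shift in the sums was not tested. The liver exception was CON replicate 1, where Atp1b3 took 58.35% and Atp1b1 41.3%; this library had the highest mitochondrial share.

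**Figure D1:**
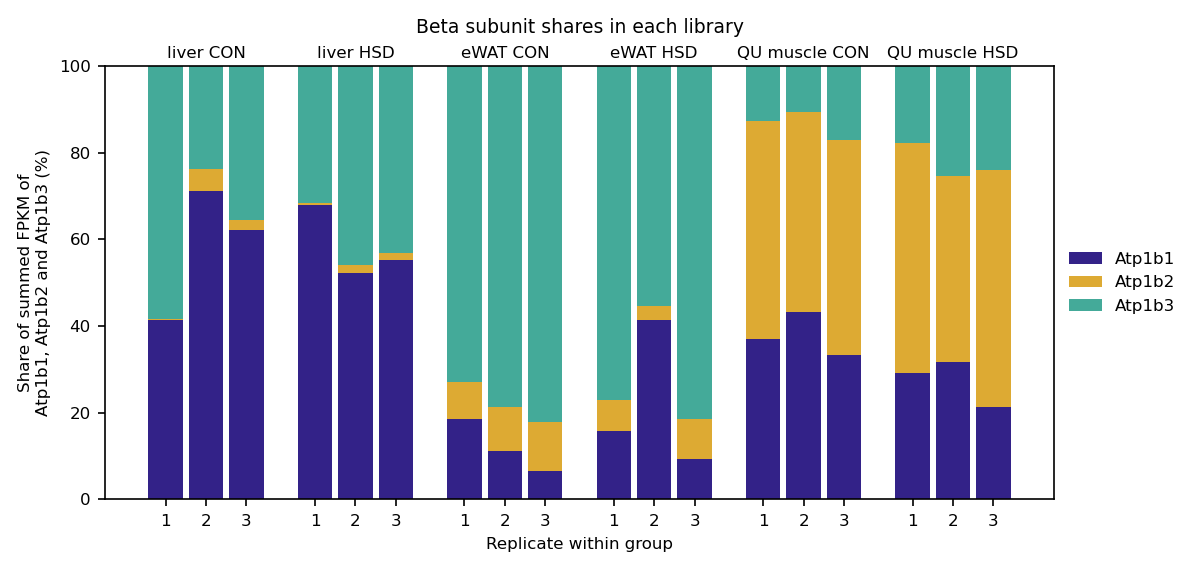
Share of Atp1b1, Atp1b2 and Atp1b3 in their summed FPKM (%), 1 stacked bar per library, with 3 replicates for each tissue and diet. Atp1b3 fills most of every eWAT bar, Atp1b2 is the largest block of every muscle bar and is at most 5.20% in liver, and eWAT HSD replicate 2 has an Atp1b1 share of 41.4%.

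Atp1b2, an isoform best known from brain and fast muscle, showed the widest range between tissues. Muscle CON libraries had 60.1, 58.1 and 51.0 FPKM and muscle HSD libraries 55.8, 36.6 and 49.75 FPKM. In eWAT, the CON libraries had 7.88, 7.82 and 9.17 FPKM and the HSD libraries 5.65, 3.19 and 7.26 FPKM. Every muscle library was thus above every eWAT library. Liver CON libraries had 0.032, 1.54 and 0.401 FPKM and liver HSD libraries 0.188, 0.566 and 0.344 FPKM. The liver values rest on 1 to 24 fragments per library, apart from the 73 fragments of CON replicate 2, the library with muscle fibre markers, and are near the limit of what this depth can count. That library's 1.54 FPKM is 2.73% of the muscle CON mean. Between CON muscle and CON liver the log2 fold change was 5.84 (SE 0.40, limma adjusted p = 2.3e-06, n = 3 against 3), and it was 6.36 without liver CON replicate 2.

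Atp1b3, a beta subunit expressed in many tissues, was highest in eWAT. The eWAT CON libraries had 67.3, 61.1 and 65.8 FPKM and the HSD libraries 61.6, 53.8 and 63.1 FPKM. The 6 eWAT values spanned only 1.25-fold, the narrowest spread of any of the 4 genes in any tissue. Muscle CON libraries had 15.2, 13.2 and 17.55 FPKM and muscle HSD libraries 18.7, 21.6 and 21.8 FPKM. Liver CON libraries had 5.71, 6.98 and 5.90 FPKM and liver HSD libraries 9.04, 13.95 and 9.26 FPKM. No eWAT library overlapped with a liver or muscle library, and in both diets every muscle library was above every liver library of that diet. In CON mice the log2 fold change of eWAT against liver was 3.29 (SE 0.17, limma adjusted p = 2.35e-07) and that of muscle against eWAT was -2.05 (SE 0.17, limma adjusted p = 6e-06).

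Atp1b1, the most widely expressed beta subunit and the partner of the pump in most epithelia, was highest in muscle CON. Muscle CON libraries had 44.2, 54.4 and 34.4 FPKM and muscle HSD libraries 30.7, 27.0 and 19.4 FPKM. The liver libraries had 4.04, 21.05 and 10.3 FPKM in CON and 19.5, 15.85 and 11.8 FPKM in HSD. In eWAT, CON libraries had 17.2, 8.63 and 5.17 FPKM and HSD libraries 12.6, 40.3 and 7.12 FPKM. The 21.05 FPKM in liver and the 40.3 FPKM in eWAT belong to the libraries with muscle fibre and with epididymal markers. The muscle CON libraries did not overlap with the CON libraries of the other tissues, whereas liver and eWAT overlapped in both diets. Muscle against liver in CON gave a log2 fold change of 2.11 (SE 0.57, limma adjusted p = 0.0081), and eWAT against liver gave -0.071 (95% interval -1.36 to 1.22, limma adjusted p = 0.91).

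Fxyd1 was highest in liver and lowest in eWAT, an order that none of the beta subunits had. Liver CON libraries had 102.5, 165.0 and 180.6 FPKM and liver HSD libraries 134.9, 131.5 and 139.0 FPKM. Muscle CON libraries had 59.3, 64.6 and 69.5 FPKM and muscle HSD libraries 54.5, 76.7 and 73.2 FPKM. In eWAT, the CON libraries had 35.6, 29.5 and 30.5 FPKM and the HSD libraries 27.5, 14.5 and 32.3 FPKM. The 3 tissues did not overlap over their 6 libraries each. In every liver library Fxyd1 exceeded each of the 3 beta subunits. In muscle it exceeded Atp1b1 and Atp1b3 in 6 of 6 libraries and Atp1b2 in 4 of 6. In eWAT it was below Atp1b3 in 6 of 6 libraries. In CON mice the log2 fold change of muscle against liver was -1.17 (SE 0.26, limma adjusted p = 0.00262) and that of eWAT against liver -2.18 (SE 0.26, limma adjusted p = 3.33e-05).

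**Figure D2:**
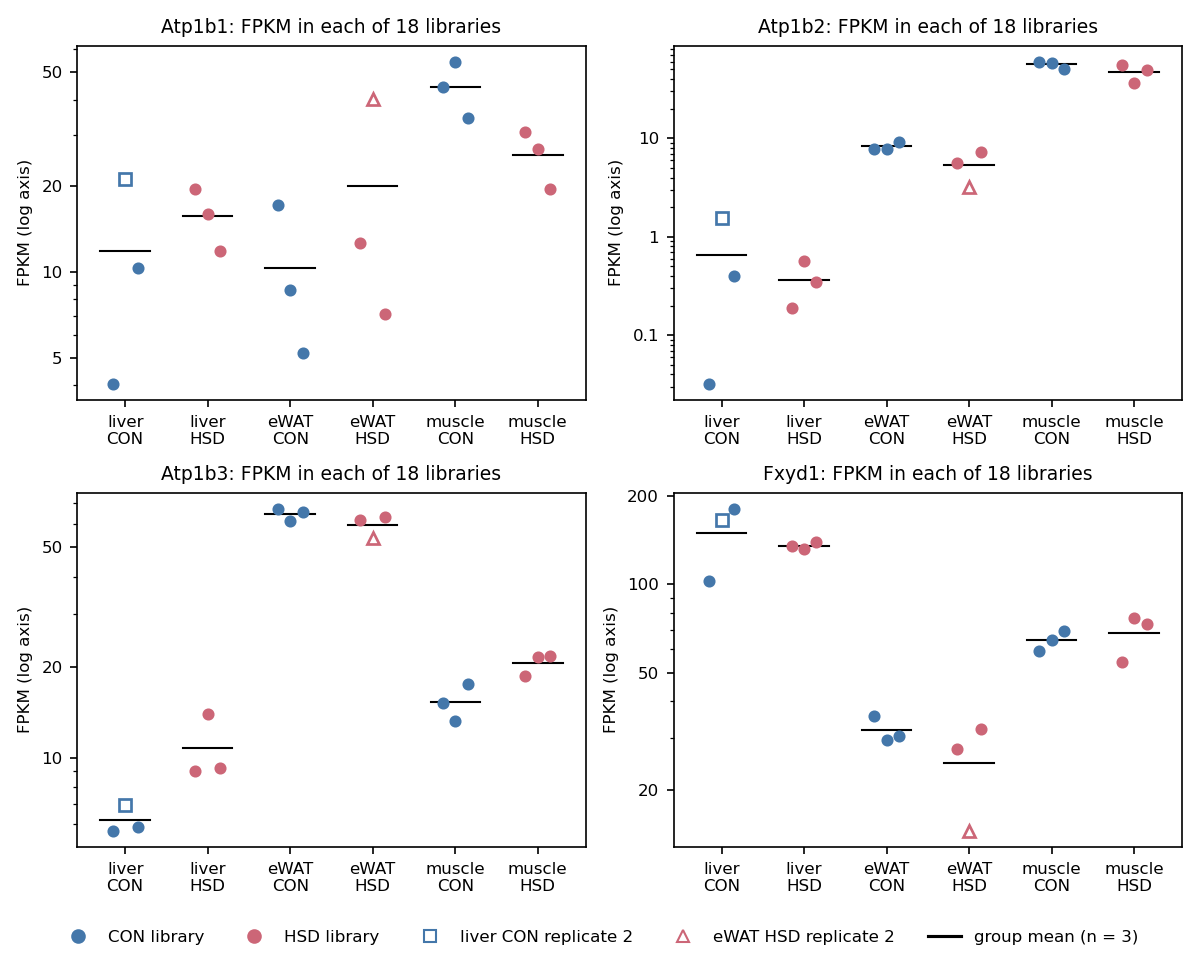
FPKM (log axis) of Atp1b1, Atp1b2, Atp1b3 and Fxyd1 in each of the 18 libraries, by tissue and diet; lines are group means (n = 3), and open symbols are liver CON replicate 2 and eWAT HSD replicate 2. Atp1b2 is lowest in liver and highest in muscle, Atp1b3 is highest in eWAT, Fxyd1 is highest in liver, and the open symbols are the highest Atp1b1 values of their groups.

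A gene was called between tissues where its limma adjusted p was under 0.05 and it differed at least 2-fold (1 on the log2 scale). In CON mice all 4 genes were called between muscle and liver, where 50.1% of 12637 tested genes were called. Between eWAT and liver, 3 of 4 were called (69.4% of all genes), and between muscle and eWAT all 4 were called (54.9%). With that many genes called, a call between tissues sets no gene apart. In HSD mice the calls were 1 of 4 (45.1% of 13255 genes), 3 of 4 (68.4%) and 3 of 4 (58.7%). FPKM is also a share of a library, and the median gene shifted between tissues. That median log2 fold change in CON mice was 0.52 for muscle against liver, 1.36 for eWAT against liver and -0.93 for muscle against eWAT. Beside these medians, Atp1b2 in muscle had 5.84 against liver and 2.69 against eWAT. For eWAT against liver, Atp1b3 had 3.29 and Fxyd1 -2.18. The spread of all genes around the medians is not given here, so how far these values stand out was not tested. Scaling libraries by their median ratio took those medians to between -0.12 and 0.046 and changed the split of called genes, for eWAT against liver in CON from 7851 higher and 917 lower to 2598 and 2593, for muscle against liver from 4436 and 1893 to 3003 and 3029, and for muscle against eWAT from 1009 and 5924 to 2160 and 2557. Of the members in CON mice, Atp1b3 in muscle against liver (1.24) kept its direction but was no longer called when mitochondrially encoded genes were left out (0.68) or under that scaling (0.59), and Atp1b1 in eWAT against liver was called lower under it (-1.62, adjusted p = 0.0230). The Atp1b1 call between CON muscle and liver was lost with library weights (log2 fold change 2.05, adjusted p = 0.123).

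**Figure D3:**
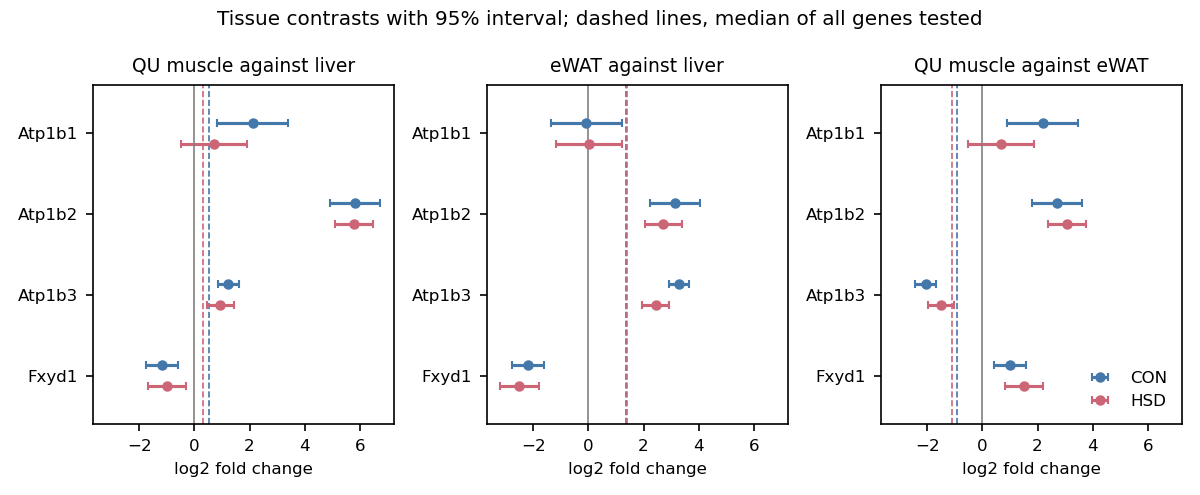
Log2 fold change with 95% interval for each gene in 3 tissue contrasts, CON and HSD fitted separately (limma, 3 libraries per group); dashed lines mark the median of all genes tested. Atp1b2 is higher in muscle than in both other tissues, Atp1b3 is highest in eWAT, and Fxyd1 is negative against liver, whereas the Atp1b1 intervals of eWAT against liver cross 0.

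In HSD mice the order of tissues was kept for Atp1b2, Atp1b3 and Fxyd1. The median log2 fold change over all genes was 0.31 for muscle against liver, 1.41 for eWAT against liver and -1.12 for muscle against eWAT. Atp1b3 had -1.50 for muscle against eWAT, near that median. With median-ratio scaling this became -0.42, and its eWAT against liver value 0.89, and neither was called. Atp1b2 was 5.79 higher in muscle than in liver on the log2 scale (SE 0.30, limma adjusted p = 2.43e-07), and Atp1b3 was 2.44 higher in eWAT than in liver (SE 0.21, limma adjusted p = 7.55e-06). Fxyd1 was again lowest in eWAT, with a log2 fold change of 1.5 for muscle against eWAT (SE 0.31, limma adjusted p = 0.00186). Atp1b1 was called in none of the 3 tissue contrasts in HSD mice. Its log2 fold change was 0.70 for muscle against liver (95% interval -0.50 to 1.89) and 0.69 for muscle against eWAT (95% interval -0.51 to 1.89). Without eWAT HSD replicate 2, the library with epididymal markers, muscle against eWAT was 1.37 for Atp1b1 and passed (limma adjusted p = 0.00412). The change of a tissue contrast with diet is the difference of diet effects given further on.

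In muscle, Atp1b1 and Atp1b3 lay on opposite sides between the diets, but neither passed after adjustment over all genes. Atp1b1 was 44.3 ± 9.99 FPKM in CON and 25.7 ± 5.76 FPKM in HSD (SD, n = 3), and Atp1b3 was 15.3 ± 2.17 FPKM in CON and 20.7 ± 1.74 FPKM in HSD. The 3 HSD libraries were all below the 3 CON libraries for Atp1b1 and all above them for Atp1b3. Groups did not overlap for these 2 of 4 genes, against 22.3% of all 10834 genes tested. The log2 fold change was -0.78 for Atp1b1 (95% interval -1.23 to -0.32, limma adjusted p = 0.110) and 0.43 for Atp1b3 (95% interval 0.12 to 0.73, limma adjusted p = 0.168). Limma called 0 of the 4 genes in muscle, where 35 genes (0.323%) were called, and voom on the fragments also called 0 of the 4, where it called 63 genes. An unadjusted p under 0.05 was reached by 2 of the 4 and by 16.3% of all genes. With the replicate number as a block, Atp1b1 reached a limma adjusted p of 0.0199 at a log2 fold change of -0.78. That is short of the fold needed for a call. In deviations from the group means, same-numbered CON and HSD muscle libraries had an r of 0.177 to 0.383. CON replicate 3 with HSD replicate 2 had 0.18. No label pairs the mice, so this block cannot add support for a diet effect. With that block Atp1b3 had an adjusted p of 0.0898, and 54 genes were called in place of 35. With library weights Atp1b1 had a log2 fold change of -0.93 (adjusted p = 0.0420), and with 1 library left out at a time its adjusted p ran from 0.0536 to 0.302.

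The beta subunit shares in muscle, taken within each library, gave the same order. They are computed from the same FPKM values of the same libraries, so they add no support for a diet effect. Atp1b1 took 37.9 ± 4.99% in CON and 27.4 ± 5.40% in HSD, ranging from 33.4 to 43.3% and from 21.3 to 31.7%. Atp1b3 took 13.4 ± 3.33% in CON and 22.4 ± 4.04% in HSD, ranging from 10.5 to 17.1% and from 17.75 to 25.3%. Neither pair of ranges overlapped. The Atp1b2 share was 48.7 ± 2.16% in CON and 50.2 ± 6.34% in HSD, and its ranges overlapped. Atp1b2 itself had a log2 fold change of -0.27 (95% interval -0.63 to 0.098, limma adjusted p = 0.447) and Fxyd1 one of 0.066 (95% interval -0.27 to 0.40, limma adjusted p = 0.864). The summed level of the 3 beta subunits was 116.0 ± 11.8 FPKM in CON and 93.8 ± 10.3 FPKM in HSD, and the groups overlapped.

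Marker sums for other cell types in the same muscle libraries were as follows. The 8 slow fibre markers, genes such as Myh7 and Tnni1 of oxidative fibres, summed to 210.5 to 485.5 FPKM in CON and 138.3 to 224.2 FPKM in HSD. All 8 had a mean of at least 1 FPKM in CON and 7 of 8 in HSD, and none was at 0 in every library of a group. The slow fibre sums overlapped, and 0 of the 8 genes were called by limma or had a positive log2 fold change (median -0.90). The 8 macrophage markers summed to 54.2 to 87.1 FPKM in CON and 39.5 to 44.9 FPKM in HSD, without overlap, and 1 of the 8 genes was called, lower. The part of these markers in the Atp1b1 and Atp1b3 values was not tested. The 12 skeletal muscle fibre markers summed to 63660 to 71390 FPKM in CON and 70720 to 81200 FPKM in HSD.

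In liver, Atp1b3 was the gene whose diet groups did not overlap, 1 of 4 against 12.1% of all 10317 genes tested. It was 6.20 ± 0.688 FPKM in CON and 10.75 ± 2.78 FPKM in HSD (SD, n = 3), a log2 fold change of 0.73 (95% interval 0.096 to 1.36, limma adjusted p = 0.764). With mitochondrially encoded genes left out and the rest rescaled, the log2 fold change of Atp1b3 was 0.38 (95% interval -0.35 to 1.11, limma adjusted p = 0.901). Mitochondrial shares were 25.71 to 60.82% in CON and 15.38 to 44.39% in HSD liver, and no batch was labelled, so beyond this rescaling their part was not tested. The 12 hepatocyte markers summed to 17740 to 86460 FPKM in CON and 40960 to 95790 FPKM in HSD liver, with 11 of 12 higher in HSD (median log2 fold change 0.98) and 0 called by limma. The 8 macrophage markers summed to 35.1 to 56.6 FPKM in CON and 19.7 to 30.9 FPKM in HSD liver, without overlap and with 0 called by limma, and the part of either list in the Atp1b3 values was not tested. Atp1b1 had a log2 fold change of 0.64 (95% interval -0.65 to 1.94, limma adjusted p = 0.764). It was 0.058 without liver CON replicate 1, the library with the lowest Atp1b1 and the highest mitochondrial share (limma adjusted p = 0.992). It was 1.18 without liver CON replicate 2, the library with muscle fibre markers (limma adjusted p = 0.506). Fxyd1 had a log2 fold change of -0.10 (95% interval -1.01 to 0.80) and Atp1b2, at its few fragments, one of -0.22 (95% interval -1.38 to 0.94). None of the 4 genes was called in liver by limma or by voom, where 0% of genes were called by either and 5.74% had an unadjusted p under 0.05 with limma. Of the members only Atp1b3 had one.

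In eWAT, all 4 differences were smaller in size without HSD replicate 2, the library with epididymal markers. Atp1b2 was 8.29 ± 0.762 FPKM in CON and 5.37 ± 2.05 FPKM in HSD (SD, n = 3), without overlap, 1 of 4 genes against 28.6% of all 13740 genes tested. Its log2 fold change was -0.65 (95% interval -1.33 to 0.036, limma adjusted p = 0.317), and -0.34 without that library (limma adjusted p = 0.155). Atp1b1 had a log2 fold change of 0.72 (95% interval -1.02 to 2.46, limma adjusted p = 0.583), which was 0.041 without that library. Fxyd1 had -0.43 (95% interval -1.16 to 0.31, limma adjusted p = 0.488), which was -0.089 without it. Atp1b3 held the narrowest interval, with a log2 fold change of -0.12 (95% interval -0.38 to 0.14, limma adjusted p = 0.548). HSD replicate 2 had the lowest Atp1b2, Atp1b3 and Fxyd1 of its group and the highest Atp1b1, beside the epididymal and adipocyte marker levels given for it, and 12 of 12 epididymal markers had a mean of at least 1 FPKM in eWAT HSD against 1 of 12 in eWAT CON. Of the male germ cell markers, highest in HSD replicate 1, 9 of 9 tested were higher in HSD (median log2 fold change 2.91), and 0 were called by limma. Without HSD replicate 1 the log2 fold changes were 0.86 for Atp1b1, -0.71 for Atp1b2, -0.15 for Atp1b3 and -0.54 for Fxyd1. Of the hepatocyte markers, 11 of 12 were lower in HSD eWAT (median -3.13) with 0 called by limma, while their sums overlapped at 1133 to 1653 FPKM in CON and 673.4 to 2579 FPKM in HSD. None of the 4 genes was called in eWAT by limma or by voom or had an unadjusted p under 0.05, where 0% of genes were called by either and 16.7% had an unadjusted p under 0.05 with limma. The 8 macrophage markers summed to 552.5 to 822.2 FPKM in CON and 237.5 to 517.7 FPKM in HSD eWAT. The part of these marker lists in the values of the 4 genes was not tested.

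**Figure D4:**
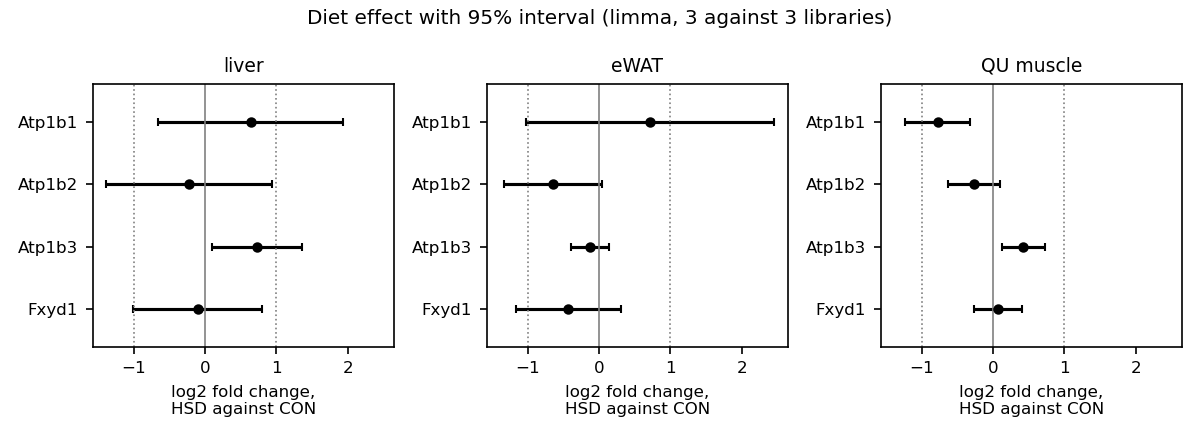
Log2 fold change of HSD against CON with 95% interval for each gene in liver, eWAT and QU muscle (limma, 3 against 3 libraries); dotted lines mark the fold needed for a call. The intervals of Atp1b1 (below 0) and Atp1b3 (above 0) in muscle and of Atp1b3 in liver exclude 0 before adjustment, and the Atp1b1 intervals in liver and eWAT are the widest.

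Whether the diet effect differed between tissues was tested as a difference of differences over the 18 libraries. For Atp1b3 the diet effect in eWAT minus that in liver was -0.85 on the log2 scale (95% interval -1.40 to -0.30, limma adjusted p = 0.173). It was not called, where 99 genes (0.758%) were. In the 15 libraries that the study's own tables hold, without 1 liver CON, 1 liver HSD and 1 eWAT HSD library, it was -1.06 and was called (limma adjusted p = 0.0166), and 2455 genes were called in place of 99. Of the eWAT HSD libraries that choice leaves out replicate 3 and keeps replicate 2, the library with epididymal markers. Atp1b1 differed by -1.42 between muscle and liver (95% interval -3.19 to 0.36, limma adjusted p = 0.709, 0.0612% of genes called) and by -1.49 between muscle and eWAT (95% interval -3.27 to 0.28, limma adjusted p = 0.712, 0% of genes called by limma or voom, 8% at an unadjusted p under 0.05 with limma). Without liver CON replicate 2 and eWAT HSD replicate 2, a choice made after seeing the data, these became -1.96 (adjusted p = 0.118) and -0.82 (adjusted p = 0.789). With all libraries, no difference of diet effects between tissues passed for any of the 4 genes.

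Some partner genes of these subunits were called between tissues, and none between diets by limma. By diet, limma called 0% of all genes tested in liver and eWAT and 0.323% in muscle. The lack of a diet call thus sets no partner gene apart, here or below. The 4 catalytic alpha subunits are given only as a sum: 22.3 ± 23.2 FPKM in liver CON and 32.7 ± 10.5 FPKM in liver HSD, 150.4 ± 14.4 and 179.8 ± 16.1 FPKM in eWAT, and 195.6 ± 13.3 and 216.1 ± 17.8 FPKM in muscle (SD, n = 3). Like the beta subunit sums, these are not adjusted for the shift of the median gene between tissues. In eWAT the lowest HSD sum, 167.2 FPKM, was just above the highest CON sum, 166.5 FPKM. Of the alpha subunits tested, 0 of 2 in liver, 0 of 4 in eWAT and 0 of 2 in muscle were called by diet. Liver CON replicate 2 had the highest liver sum, 48.8 FPKM, and liver CON replicate 1 the lowest, 5.80 FPKM.

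Among other ATPase subunits, Atp1b4, a beta-like protein of skeletal muscle that serves as a nuclear co-regulator in mammals, was measured in muscle at 3.77, 3.22 and 3.43 FPKM in CON and at 2.38, 2.33 and 2.59 FPKM in HSD. The groups did not overlap, as for 22.3% of all 10834 genes tested in muscle, and the log2 fold change was -0.44 (SE 0.12, limma adjusted p = 0.120). Atp1b4 was listed at 0 in all eWAT libraries and in 5 of 6 liver libraries, and at 0.409 FPKM in liver CON replicate 2. None of the 4 genes of this list, which also holds the gastric and colonic proton pump subunits, was called by diet in a tissue where it was tested.

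Fxyd1 was the leading FXYD gene in 17 of 18 libraries. In eWAT CON the next was Fxyd5, dysadherin, at 7.59 ± 1.63 FPKM in CON and 5.22 ± 1.83 FPKM in HSD (SD, n = 3). Fxyd4, a regulator known from kidney collecting duct and colon, stood at 27.3 FPKM in eWAT HSD replicate 2, above that library's 14.5 FPKM of Fxyd1, and at 0.067 to 0.159 FPKM in the other 5 eWAT libraries. In muscle the next was Fxyd6 at 11.7 ± 2.69 FPKM in CON and 8.72 ± 2.13 FPKM in HSD, with a log2 fold change of -0.41 (limma adjusted p = 0.339). Fxyd6 was 7.52 FPKM in liver CON replicate 2 and at most 0.256 FPKM in the other 5 liver libraries. Of the 6 other FXYD genes, 0 of 3 tested in liver, 0 of 5 in eWAT and 0 of 3 in muscle were called by diet, with median log2 fold changes of -0.53, -0.12 and 0.087 against medians of 0.13, 0.080 and -0.060 over all genes.

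**Figure D5:**
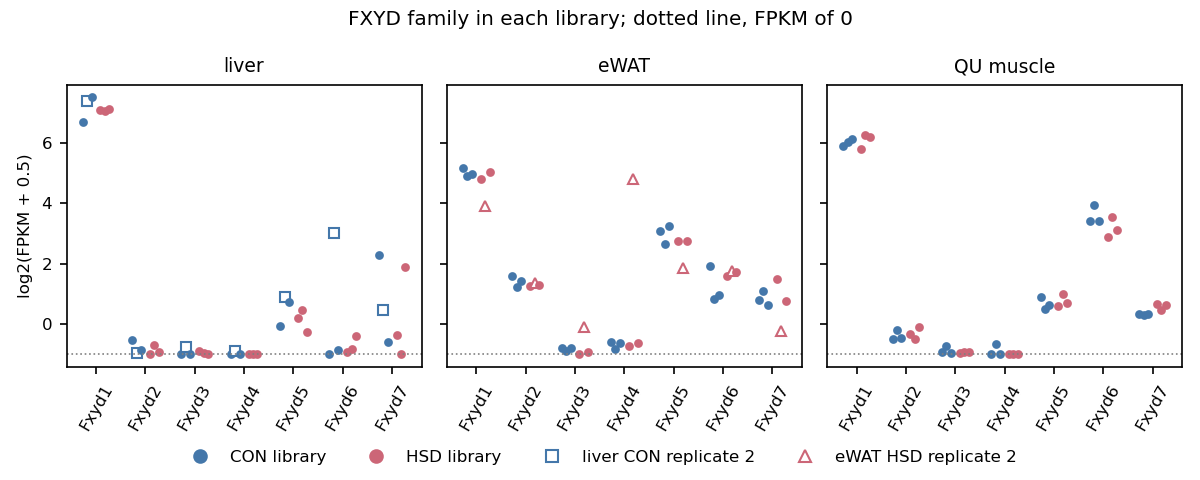
Expression of Fxyd1 to Fxyd7 as log2(FPKM + 0.5) in each library of liver, eWAT and QU muscle; blue is CON, red is HSD, and open symbols are liver CON replicate 2 and eWAT HSD replicate 2. Fxyd1 is the highest in every panel except in eWAT HSD replicate 2, where Fxyd4 is higher, and Fxyd6 in liver stands out only in CON replicate 2.

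Of the NKAIN genes, whose products bind beta subunits, Nkain1 led in muscle with 15.7 ± 2.75 FPKM in CON and 13.55 ± 3.59 FPKM in HSD, and Nkain4 led in eWAT with 4.87 ± 1.24 and 4.01 ± 1.3 FPKM (SD, n = 3). Neither was called by diet, where 0.323% of all genes in muscle and 0% in eWAT were. A list of 10 genes held kinases and phosphatases linked to phospholemman and a phosphatase inhibitor, Ppp1r1a. Of these, 9 were called higher in CON muscle than in CON liver, where 35.1% of all genes were called higher. All 10 were called higher in CON eWAT than in CON liver (62.1% of all genes). The median log2 fold changes were 2.0 and 2.62 against 0.52 and 1.36 over all genes. Prkaca, the main catalytic subunit of protein kinase A, had the highest level of this list in eWAT CON, with 63.1, 84.4 and 64.6 FPKM in CON and 43.8, 33.3 and 48.5 FPKM in HSD. The groups did not overlap. Its log2 fold change was -0.75 (SE 0.19, limma adjusted p = 0.171). Ppp2ca, a catalytic subunit of protein phosphatase 2A, named after its values were seen, was 40.4 ± 2.84 FPKM in eWAT CON and 28.6 ± 2.73 FPKM in eWAT HSD without overlap, with a log2 fold change of -0.50 (limma adjusted p = 0.152). Ppp1cc, of the same list, also did not overlap in eWAT but was higher in HSD (log2 fold change 0.37, limma adjusted p = 0.411). In eWAT the groups did not overlap for 28.6% of all 13740 genes tested. None of the 10 genes was called by diet in any tissue by limma, which called 0% of all genes in liver and eWAT and 0.323% in muscle.

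Across the 18 libraries the members differed in how they ran together. The Pearson r of log2(FPKM + 0.5) between Atp1b3 and Fxyd1 was -0.909 and that between Atp1b1 and Atp1b2 0.562, over points that come from 3 tissues and in part share mice. After the mean of each tissue was subtracted, these were 0.192 and 0.0050, and the highest was 0.606 between Atp1b2 and Fxyd1 (n = 18), both of which were low in eWAT HSD replicate 2. Over all libraries the 3 genes most like Atp1b2 among 11738 were Ksr1 (r = 0.993), Pygo1 (r = 0.991) and Rnf150 (r = 0.99). Those most like Atp1b3 were Bcl7b (r = 0.986), Hipk1 (r = 0.984) and Akt1 (r = 0.983), and those most like Fxyd1 were Pter (r = 0.968), Car8 (r = 0.955) and Mrpl14 (r = 0.95). Atp1b1 had the lowest values, with Egln3 (r = 0.882), Tpd52l1 (r = 0.871) and Ank3 (r = 0.863).

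Within tissues the nearest genes were others. Atp1b1 was most like Gstm7 (r = 0.911), Krt8 (r = 0.901) and Spint2 (r = 0.892) after the tissue means were subtracted. Krt8 and Spint2 are epithelial genes, and both were higher in the eWAT HSD mean (44.7 and 40.7 FPKM) than in the eWAT CON mean (12.99 and 7.77 FPKM). That HSD mean takes in replicate 2, the library with epididymal markers and the highest eWAT Atp1b1, 40.3 FPKM. The part of that library in these means and r values was not tested. Atp1b2 was most like Cs (r = 0.927), Dpt (r = 0.896) and Mfn2 (r = 0.894). Cs encodes citrate synthase and Mfn2 a mitochondrial fusion protein. Atp1b3 was most like Pnrc1 (r = 0.907), Odc1 (r = 0.879) and Mrto4 (r = 0.877), and Fxyd1 was most like Mpp1 (r = 0.879), Fbln5 (r = 0.861) and Sulf2 (r = 0.858).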

How the data were processed

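RNA was sequenced from liver, eWAT and QU muscle of CON and HSD mice. The authors used ribosomal depletion and a stranded total RNA kit, trimmed reads, aligned them to mm10 with hisat2 and deposited FPKM per gene. The submitters' processing notes name HTSeq 0.9.1, while the study's methods name cuffdiff. With GENCODE M21 exon lengths, the deposited FPKM were whole fragments (tolerance 0.02) for 18343 of 18822 genes above 0 (97.46%), including all 4 members. These fragments served for an added limma voom fit.

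Values of log2(FPKM + 0.5) were tested where the FPKM averaged 0.5 or more over the libraries compared, with limma 3.58.1 (lmFit and eBayes with trend) in R 4.3.3, 2-sided, with Benjamini-Hochberg adjustment over all genes tested. The fold changes are on that log2 scale and understate those of low genes. A call needed a difference of 2-fold or more (1 on the log2 scale) and an adjusted p under 0.05. Each diet effect was fitted in its tissue, tissue contrasts within a diet, and differences of diet effects over all libraries. The study's count-based test does not take FPKM, and it was not run on the recovered fragments. Intervals cover the spread between libraries, and fragment numbers cover counting only. The fit was tested on simulated data.

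The members and gene lists were chosen with earlier results of these data known. Named genes were the members, list genes called or highest in a tissue, and the 3 genes most correlated with each member (mean FPKM of at least 1). Other list genes were named for their values. Replicate numbers were checked as pairs by correlating deviations from the group means across genes, although no label pairs CON with HSD mice. For same numbers r was 0.383, 0.177 and 0.184 in muscle, -0.473, 0.395 and -0.213 in liver and -0.197, 0.061 and 0.414 in eWAT. For unlike numbers in muscle it ran from -0.347 to 0.18. The main fits used no pairs, and the replicate block was only an alternative. Pseudocounts, filters, scalings, library weights, blocks, left-out libraries and the study's 15 libraries were tried as alternatives. Single catalytic alpha subunits are not reported here.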

Additional observations from a re-analysis of the deposited data

How the results depend on the processing

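The main fit is the limma fit described above. Over all alternatives, 1385 values stayed the same, 30 fold changes reversed, 16 gained a call, 10 lost a call, and 11 counts or shares moved. For fold changes, the same means the same direction and side of the call threshold. For counts it means a similar number of members called, and for shares a value within the SD of the group. The reversals were all of values with an adjusted p above 0.05 in the main fit. Values here are log2 fold changes. For eWAT against liver, Atp1b1 became 0.47 in CON with the study's 15 libraries, and in HSD -0.0021 with a pseudocount of 0.1, -1.52 with median-ratio scaling, -0.90 with quantile normalization, -0.37 without mitochondrially encoded genes, -0.77 with library weights and -0.0019 with voom. Among differences of diet effects, muscle minus liver became 0.059 for Atp1b2 with median-ratio scaling and 0.026 for Atp1b3 without mitochondrially encoded genes. For eWAT minus liver, Atp1b1 became -0.24 with library weights, -0.11 with the study's libraries and -1.14 without liver CON replicate 2 and eWAT HSD replicate 2, and Fxyd1 became 0.046 without mitochondrially encoded genes and 0.058 with library weights. Calls were lost in CON for muscle against liver for Atp1b1 with library weights (2.05) and for Atp1b3 with median-ratio scaling (0.59), quantile normalization (0.71) and without mitochondrially encoded genes (0.68), for muscle against eWAT for Fxyd1 with a pseudocount of 1 (1.0), and in HSD with median-ratio scaling for Atp1b3 in eWAT against liver (0.89) and in muscle against eWAT (-0.42). Calls were gained with median-ratio scaling for Atp1b1 in CON eWAT against liver (-1.62) and HSD muscle against eWAT (1.74; 1.01 with library weights). For HSD muscle against liver they were gained for Atp1b3 with library weights (1.18) and for Fxyd1 with a pseudocount of 0.1 (-1.0), median-ratio scaling (-1.48), without mitochondrially encoded genes (-1.24), with voom (-1.0) and with the mouse as a block (-1.0), so that 2 of 4 members were called under each of these 6 settings in place of 1. With the study's libraries the eWAT minus liver difference of Atp1b3 (-1.06) was the 1 member called. With 1 library left out at a time, values ranged from -0.35 to 0.055 for the liver diet effect of Fxyd1 and from -0.027 to 0.22 for that in muscle. For tissue contrasts these ranges were -0.65 to 0.47 (CON) and -0.67 to 0.54 (HSD) for Atp1b1 in eWAT against liver, 0.95 to 1.09 for Fxyd1 in CON muscle against eWAT, 0.83 to 1.13 for Atp1b3 and -1.09 to -0.85 for Fxyd1 in HSD muscle against liver (1 to 3 members called), and 0.16 to 1.37 for Atp1b1 in HSD muscle against eWAT. For differences of diet effects they were -0.57 to 0.40 for Atp1b2 in muscle minus liver, and for eWAT minus liver -0.60 to 0.66 for Atp1b1, -0.94 to 0.023 for Atp1b2 and -0.55 to 0.013 for Fxyd1. The causes of these changes were not tested.

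Genes called by diet in liver were 0 in the main fit and 926 with library weights, 41 with all tissues in 1 fit, 35 with the study's libraries and 1 without CON replicate 2. The study itself, with its count-based test, reported changed genes in liver, eWAT and muscle, most in eWAT and fewest in muscle. In eWAT the genes called here were 0 in the main fit and 220 with library weights, 161 with all tissues, 160 without HSD replicate 2 and 1 without CON replicate 3. In muscle they were 35 in the main fit and 7 without a filter, 5 with all tissues, 63 with voom and 10 to 61 with 1 library left out. With the replicate block in muscle they were 54, and the block changed no call of a member by diet. Between eWAT and liver, 8768 (CON) and 9064 (HSD) genes were called in the main fit, 5191 and 5545 with median-ratio scaling and 5150 and 4840 with quantile normalization. Between HSD muscle and eWAT these were 7782, 5021 and 4621. For differences of diet effects, 8 (muscle minus liver), 99 (eWAT minus liver) and 0 (muscle minus eWAT) genes were called in the main fit, 1286, 2455 and 170 with the study's libraries and 117, 260 and 20 without liver CON replicate 2 and eWAT HSD replicate 2. Voom and the last of these choices were made after seeing the data. Depth limits Atp1b2 in liver, which had 1 to 73 fragments per library.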
